A study of Gallus gallus with 8 samples.

Results

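The serine/threonine kinase genes described here are the named genes of the array whose symbol belongs to the mitogen-activated protein kinases (MAPK), the kinases above them in the cascade (MAP2K, MAP3K), protein kinase C and D (PRKC, PRKD), the subunits of protein kinase A and of AMP-activated kinase (PRKA), the calmodulin-dependent kinases (CAMK), AKT, the ribosomal S6 kinases (RPS6K) and the numbered STK genes. Membership was decided by symbol alone and gave 61 of 7849 named genes, carried by 170 probes. The choice of these symbols was made with earlier results of these data known. Whole blood and peripheral blood mononuclear cells (PBMC) were taken from the same 4 male broiler chickens, 9 weeks old and reared conventionally, and each sample was hybridised to 1 single-colour array. PBMC are the cells that stay on top of a Ficoll density gradient, mostly lymphocytes, monocytes and thrombocytes, whereas whole blood of birds also holds nucleated, RNA-containing red cells. Each group held 4 arrays, and birds 1 to 4 carry the same number in both groups. In bulk RNA such as this, fewer cells of a type and less RNA per cell cannot be told apart.

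These enzymes pass signals on by phosphorylating serine and threonine residues. MAPK cascades run in 3 tiers, from MAP3K through MAP2K to MAPK, and end on growth, stress and cytokine responses. Most protein kinase C isoforms are switched on by diacylglycerol below antigen and chemokine receptors, atypical isoforms such as PRKCI are not. AKT carries phosphoinositide signals from growth factor and antigen receptors, and AMP-activated kinase (AMPK), a complex of a catalytic alpha, a scaffold beta and a nucleotide-sensing gamma subunit, responds to low energy.

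Most kinase genes differed between the sample types, and members of the same family often differed in opposite directions. No other gene families were compared, so nothing particular to kinase families is read from this. Of the 61 genes, 54 were tested, since they were well above background throughout 1 group or both (4 arrays each). By limma, at a Benjamini-Hochberg adjusted p under 0.05 over all features, 46 of them (85.2%) differed, against 79.1% of all 33775 features tested, and 79.7% of the 5999 named genes tested, shares close to theirs. Higher levels in PBMC were found for 31 kinase genes (57.4%, against 39.8% of all features and 42.3% of named genes) and lower levels for 15 (27.8%, against 39.3% and 37.3%). Of the 54 genes 5 (PRKCE, MAPK8, CAMK2B, STK39 and MAPK8IP3), all higher in PBMC, were tested through their PBMC signal alone, so their direction follows in part from the filter. Among the 49 genes above background on all 8 arrays, 41 differed, 26 of them higher and 15 lower in PBMC. Under that filter 22129 of 28285 features differed. Of those that differed, 48.0% of all features and 63.4% of the kinase genes were higher in PBMC. The median difference, PBMC minus whole blood on the log2 scale, was 0.77 for the kinase genes and 0.01 for all features, with medians of the absolute difference of 1.40 for both. Here and below a level is the log2 signal relative to the 75th percentile of its array, and a difference is PBMC minus whole blood. The 4 whole blood and the 4 PBMC values did not overlap for 43 of the 54 genes (79.6%, against 73.3% of all features), and all 4 birds went the same way for 49 (84.1% of all features did). When arrays were centred on their median instead, the median of all features moved to -0.30, that of the kinase genes to 0.46, and the split of calls to 27 higher and 20 lower. Of those that differed under that centring, 43.0% of all features and 57.4% of the kinase genes were higher in PBMC.

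The sample types also differed in the markers of the cells they hold. All 14 red cell markers tested were lower in PBMC, their summed linear level lying between 3394 and 3661 in whole blood and between 405 and 975 in PBMC. T cell markers (9 of 9 higher) summed to 79.3 to 104 in whole blood and 287 to 379 in PBMC, B cell markers (6 of 7 higher) to 4.41 to 8.01 and 23.3 to 46.5. Monocyte markers (6 of 6 higher) summed to 14.6 to 31.5 and 69.2 to 131, thrombocyte markers (6 of 7 higher) to 52.8 to 86.4 and 237 to 343, and heterophil markers (1 of 4 lower, 3 not past the threshold) to 10.6 to 13.1 and 5.54 to 10.4. CD14 and the chemokine gene IL8L1 were above background on no array. The part of cell type shares in the kinase differences was not tested. All arrays lay on 1 slide. Sample type followed slide column, so these cannot be told apart, and slide rows held both sample types but different birds (row 1 birds 2 and 4, row 2 birds 1 and 3).

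**Figure D1:**
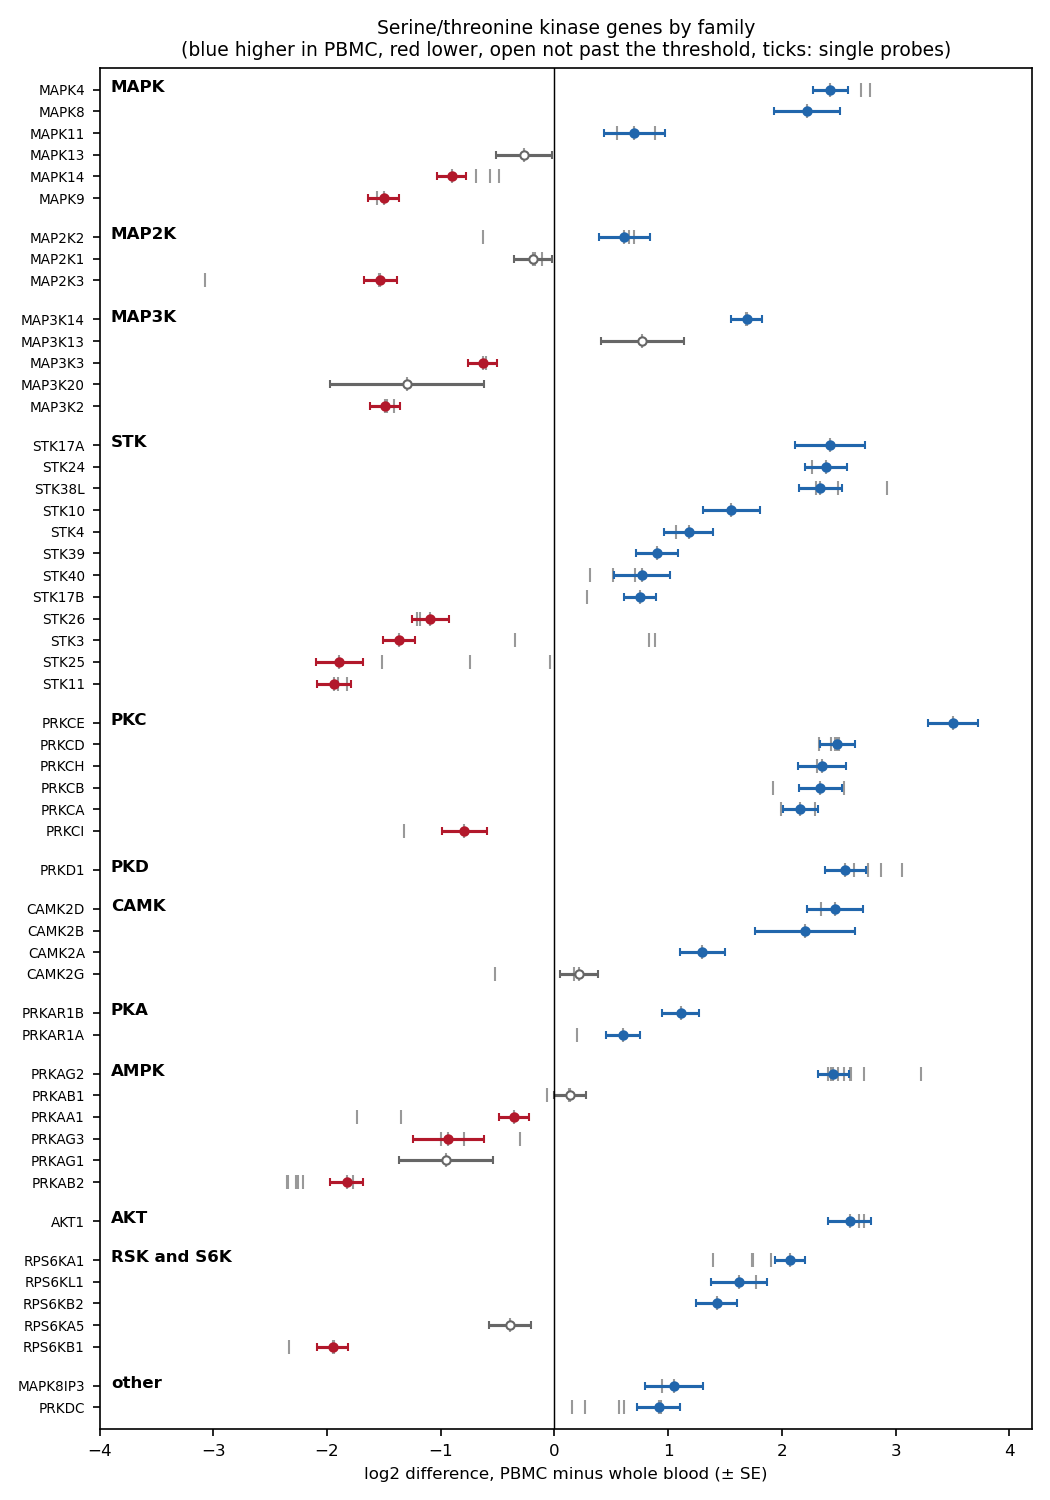
Log2 difference (PBMC minus whole blood, ± SE of the fit, 4 arrays per group) of the tested kinase genes, by family, 1 MAPK gene not drawn; grey ticks mark every tested probe of a gene. PRKCA, PRKCB, PRKCD and PRKCH lie between 2.16 and 2.49, while the MAPK, AMPK and STK families spread over both sides of 0, and the ticks of STK3 and MAP2K2 fall on both sides too.

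Of the 6 protein kinase C members, 5 were higher in PBMC and 1, PRKCI, was lower (39.8% and 39.3% of all features). PRKCA and PRKCB are conventional isoforms that need calcium and diacylglycerol. The log2 level of PRKCA was -1.47, -1.11, -1.42 and -1.32 in the whole blood of birds 1 to 4 and 0.71, 0.66, 1.11 and 0.85 in their PBMC, a 4.47-fold difference (2.16 ± 0.15, log2 difference ± SE, adjusted p = 2.11e-06). PRKCB stood at -3.59, -3.10, -2.85 and -3.18 in whole blood and at -0.71, -0.62, -0.98 and -1.04 in PBMC. For both genes the groups lay well apart in every bird, and PRKCB differed by 2.34 ± 0.19 (adjusted p = 4.00e-06; 1.72 with the normexp background correction and 1.75 in the authors' values).

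PRKCD, PRKCE and PRKCH respond to diacylglycerol without calcium. PRKCD, which acts in B cell tolerance and myeloid cells of mammals, went from -0.22, -0.01, -0.20 and 0.21 to 2.25, 2.33, 2.56 and 2.59, a 5.60-fold rise (2.49 ± 0.15, adjusted p = 1.14e-06), and all 6 of its probes rose by between 2.33 and 2.50. PRKCH, expressed in T cells of mammals, went from -0.91, -0.36, -1.03 and -0.23 to 1.55, 1.71, 1.60 and 2.02 (2.35 ± 0.21, adjusted p = 8.62e-06). The ranges of the 2 sample types did not meet for either gene. PRKCE was above background on no whole blood array and on all 4 PBMC arrays, where it stood at -4.09, -3.91, -4.03 and -4.15. On the scale used here only a bound can be given for it, at least 3.27-fold higher in PBMC. The bound does not carry over to other scales, since the log2 differences of 0.64 by normexp and 0.84 in the authors' values lie below it. Its adjusted p of 1.20e-06 by limma rests on whole blood values below background, and its direction follows in part from the filter. The bound compares the PBMC mean with a floor on each whole blood array, namely the dimmest signal still flagged as above background or, where brighter, the signal of the probe itself.

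PRKCI, the atypical isoform that works with the scaffold proteins PARD3 and PARD6B in cell polarity, ran the other way. Its log2 level was 2.11, 1.70, 1.74 and 1.77 in whole blood and 1.55, 0.81, 0.99 and 0.80 in PBMC. Every PBMC value lay below every whole blood value, with bird 1 highest in both groups. The difference was -0.79 ± 0.20 (adjusted p = 0.00489), or 1.73-fold higher in whole blood, and within birds it ran from -0.55 to -0.97. A second detected probe differed by -1.32. The call ended in slide row 2 alone (-0.65, adjusted p = 0.104), which holds 2 arrays per group.

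Protein kinase D1, PRKD1, which is phosphorylated by protein kinase C, went from 1.16, 1.06, 1.18 and 1.15 to 3.90, 3.96, 3.21 and 3.71 (2.56 ± 0.18, adjusted p = 1.96e-06). Its 4 whole blood values were tight and the PBMC values more spread (SD 0.05 and 0.34), and all 5 probes rose by between 2.56 and 3.06. Among 14 other tested genes of the diacylglycerol and protein kinase C pathway, 10 were higher in PBMC and 3 lower, and 1 did not pass. Of all features 39.8% were higher and 39.3% lower, and no pathway list was tested as a set. The median of the 14 genes was 1.75. The phospholipase gene PLCB1, whose product makes diacylglycerol, rose by 2.82 ± 0.17. PARD6B gave no signal above background in PBMC, and was tested through its whole blood signal alone, which all whole blood arrays measured. With the floor set on the PBMC arrays, it was 10.5-fold lower in PBMC on the scale used here. The floor hardly changed this value, which is close to the measured log2 difference of -3.40. It thus rests on PBMC signals not above background and is no firm lower limit. PARD3, named after its value was seen, also fell (-0.45 ± 0.13, adjusted p = 0.00856).

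**Figure D2:**
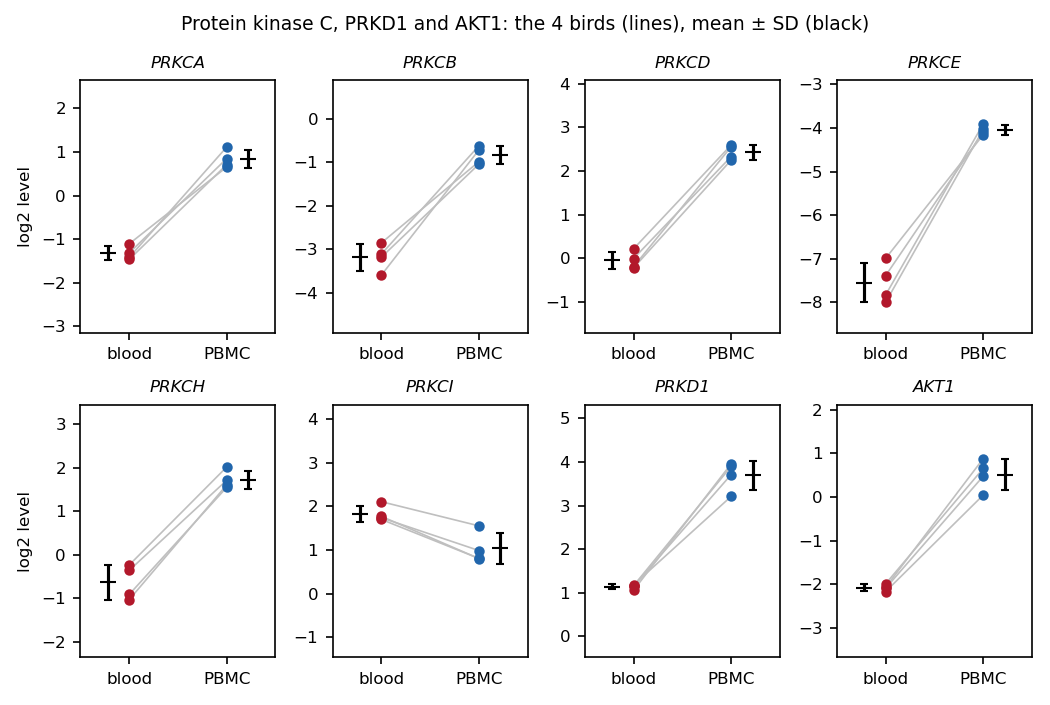
Log2 level (array 75th percentile at 0) of protein kinase C genes, PRKD1 and AKT1 in whole blood and PBMC of the 4 birds, joined by lines, with mean ± SD in black; each panel spans the same number of log2 units. In every panel but that of PRKCI the PBMC values lie above the whole blood values; PRKCE was not above background on any whole blood array.

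AKT1, the only AKT gene among the members, was one of the largest rises. Its level was -2.07, -1.99, -2.17 and -2.09 in whole blood and 0.88, 0.66, 0.05 and 0.48 in PBMC. Whole blood values were tight (SD 0.07) and PBMC values less so (SD 0.35), with a gap of over 2 log2 units between the groups. The rise was 6.04-fold (2.60 ± 0.19, adjusted p = 2.15e-06; 1.99 in the authors' values), and its 3 detected probes agreed on 2.60 to 2.73. Of 21 tested genes of phosphoinositide, AKT and mTOR signalling, 13 were higher in PBMC and 6 lower (39.8% and 39.3% of all features), and 2 did not pass. Their median was 0.91. GSK3B, a kinase that AKT inhibits, rose by 2.71 ± 0.18 and the AKT phosphatase gene PHLPP1 by 2.48 ± 0.33, the latter above background on 2 of 4 whole blood arrays. The whole blood signal of GSK3B was dim as well (-5.04 to -4.29), and its difference under other background corrections is not given. PIK3R3, a regulatory subunit of phosphoinositide 3-kinase, was not above background in PBMC and was tested through its whole blood signal alone. By the same kind of bound it was 5.53-fold lower in PBMC on the scale used here. Its PBMC signals, none above background, ran from -7.46 to -5.09 (bird 4). The 5.53-fold value rests in part on such signals and is no firm lower limit.

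The ribosomal S6 kinases split. RPS6KB1 and RPS6KB2 encode S6K1 and S6K2, which mTOR complex 1 activates to raise protein synthesis. RPS6KB1 fell from 1.30, 1.43, 1.14 and 1.06 to -0.62, -0.66, -0.89 and -0.69, which makes it 3.87-fold higher in whole blood (-1.95 ± 0.14, adjusted p = 2.13e-06). RPS6KB2 rose from -3.23, -3.25, -3.44 and -3.01 to -1.61, -1.82, -2.23 and -1.56 (1.43 ± 0.18, adjusted p = 7.53e-05). Neither gene's groups overlapped, and every bird showed both directions. RPS6KA1, the kinase RSK1 downstream of ERK, rose from 1.86, 2.06, 1.85 and 2.17 to 4.11, 3.94, 4.11 and 4.05, a 4.19-fold difference (2.07 ± 0.13, adjusted p = 1.29e-06). RPS6KL1, an S6 kinase-like gene, rose by 1.62 ± 0.24 (0.79 by normexp and 0.82 in the authors' values). RPS6KA5, or MSK1, which phosphorylates histone H3 and CREB, was lower in PBMC in 4 of 4 birds but did not pass (-0.39 ± 0.18, adjusted p = 0.0748; adjusted p = 0.0463 with the bird as a block and 0.0276 with the slide row as a block). Its difference was 0.06 with quantile normalization (adjusted p = 0.748), -0.02 with cyclic loess (adjusted p = 0.923) and -0.70 with arrays centred on their median (adjusted p = 0.00962).

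By the brightest probe of each gene, every tier of the MAPK cascade held members of both directions (39.8% of all features were higher and 39.3% lower). In the middle tier the only higher one was MAP2K2, whose direction depended on the probe. At the top, MAP3K14, the NF-kappaB-inducing kinase of the noncanonical NF-kappaB pathway, rose from -2.54, -2.44, -2.42 and -2.16 to -0.66, -0.58, -0.74 and -0.81 (1.69 ± 0.14, adjusted p = 4.11e-06). MAP3K2, a kinase upstream of ERK5 and JNK, fell from 1.24, 1.30, 1.41 and 1.04 to -0.33, -0.17, -0.27 and -0.19 (-1.49 ± 0.13, adjusted p = 6.95e-06). Both changes left a wide gap between the groups. Its relative MAP3K3 fell less (-0.63 ± 0.13, adjusted p = 0.00136; adjusted p = 0.0502 in slide row 2 alone). MAP3K13 (0.77 ± 0.36, adjusted p = 0.0772) and MAP3K20, the ribotoxic stress kinase ZAK (-1.30 ± 0.68, adjusted p = 0.107), did not pass. In MAP3K20, whole blood of bird 3 stood at -3.81 and the other 3 birds between -0.90 and -0.61, and without that array it differed by -2.07 (adjusted p = 2.33e-04). In MAP3K13, whole blood of bird 4 stood at -2.77 and the others between -4.00 and -3.90, with a difference of 1.07 without it (adjusted p = 0.0127); without PBMC of bird 4 it was 1.06 (adjusted p = 0.0158).

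In the middle tier, MAP2K3, which activates p38, fell from -2.31, -2.36, -2.24 and -2.21 to -3.90, -3.69, -3.57 and -4.08 (-1.53 ± 0.15, adjusted p = 1.24e-05; -0.89 by normexp), and the 2 probes measured in both groups fell by 1.53 and 1.54 on the log2 scale. MAP2K1, the ERK activator MEK1, did not pass (-0.19 ± 0.17, adjusted p = 0.320; -0.50, adjusted p = 0.0234, with arrays centred on their median), and its sign turned with quantile normalization (0.26) and cyclic loess (0.18). Its levels overlapped, at 2.76 to 2.99 in whole blood and 2.25 to 2.94 in PBMC. MAP2K2, or MEK2, was higher in PBMC by 0.62 ± 0.23 (adjusted p = 0.0311), but the groups overlapped, 1 of its 4 probes fell (-0.62), and the call ended in 15 of 25 alternatives, with adjusted p up to 0.222.

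Among the MAPKs themselves, the JNK genes parted most. MAPK9, or JNK2, fell from 3.92, 3.95, 4.10 and 3.90 to 2.75, 2.37, 2.41 and 2.34 (-1.50 ± 0.14, adjusted p = 9.84e-06), and its 2 probes agreed. MAPK8, or JNK1, rose from -5.17, -5.68, -5.10 and -4.44 to -2.53, -2.83, -3.48 and -2.67 (2.22 ± 0.29, adjusted p = 9.27e-05). Its whole blood signal was dim, above background on 2 of 4 arrays, and the difference shrank to 0.84 by normexp and to 0.90 in the authors' values, still past the threshold. The p38 genes showed a smaller contrast. MAPK14, or p38 alpha, fell from -0.08, -0.11, -0.13 and 0.05 to -0.90, -0.92, -1.14 and -0.93 (-0.90 ± 0.12, adjusted p = 1.23e-04), and all 4 of its probes fell. MAPK11, or p38 beta, was higher in PBMC by 0.70 ± 0.27 (adjusted p = 0.0369) with overlapping groups, and this call ended in 16 of 25 alternatives (adjusted p up to 0.183). MAPK13, or p38 delta, did not pass (-0.27 ± 0.25, adjusted p = 0.334), but did with cyclic loess (-0.69, adjusted p = 0.0197) and with arrays centred on their median (-0.58, adjusted p = 0.0446).

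The atypical kinase gene named MAPK4 here, with MAPK6 as a listed synonym, rose from -0.60, -0.69, -0.89 and -0.49 to 1.93, 1.68, 1.55 and 1.88 (2.43 ± 0.15, adjusted p = 1.11e-06). The separation of its groups was as clear in each of its 3 probes, which rose by between 2.43 and 2.78.

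Of 17 tested partners and targets of the MAPK cascade, 6 were higher in PBMC and 6 lower (39.8% and 39.3% of all features), and 5 did not pass. Their median was -0.18. The small GTPase gene HRAS rose by 2.39 ± 0.16, and MKNK2, a kinase of the translation factor eIF4E, fell by 3.20 on the log2 scale (SE 0.12). All 4 tested MAPK phosphatase genes were higher in PBMC, as were 39.8% of all features, among them DUSP6 (2.76 ± 0.33) and DUSP1 (2.05 ± 0.49).

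**Figure D3:**
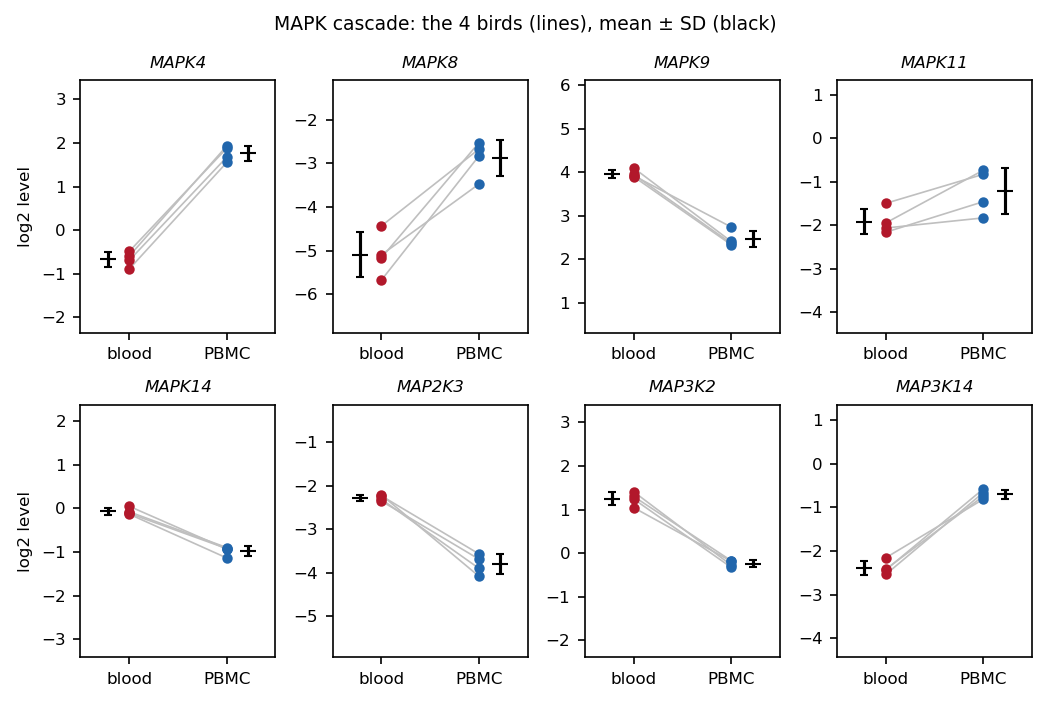
Log2 level of 8 genes of the MAPK cascade in whole blood and PBMC of the 4 birds, joined by lines, with mean ± SD in black; each panel spans the same number of log2 units. MAPK4, MAPK8 and MAP3K14 lie higher in PBMC, MAPK9, MAPK14, MAP2K3 and MAP3K2 lie lower, and the MAPK11 groups overlap; MAPK8 was above background on 2 of 4 whole blood arrays.

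All 12 tested STK genes differed by their brightest probe (79.1% of all features did), 8 higher and 4 lower in PBMC. The calls of STK3, STK17B, STK25 and STK40 depended on the probe. STK17A, which encodes a relative of the death-associated protein kinases, went from -3.28, -3.50, -3.43 and -4.21 to -0.59, -1.24, -0.94 and -1.94 (2.43 ± 0.31, adjusted p = 7.47e-05; 1.41 by normexp and 1.46 in the authors' values). STK24 went from -2.03, -2.57, -2.26 and -2.36 to 0.42, -0.19, 0.19 and -0.10 (2.39 ± 0.18, adjusted p = 3.20e-06). The NDR kinase gene STK38L stood between 1.01 and 1.74 in whole blood and between 3.40 and 3.84 in PBMC (2.34 ± 0.19, adjusted p = 4.30e-06). In none of these did the groups touch. STK10, which phosphorylates the membrane linkers of the ezrin family in lymphocytes, rose by 1.56 ± 0.25 (0.65 by normexp and 0.66 in the authors' values). STK17B rose by 0.75 ± 0.14, though its second probe did not pass (0.29, adjusted p = 0.0844 by limma). STK39 and STK40, named after their values were seen, rose by 0.90 and 0.77. STK39 was above background on 1 of 4 whole blood arrays, and 1 of the 4 STK40 probes passed.

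The STK24 relatives STK25 and STK26, which like it belong to the germinal centre kinases, moved the other way. STK25 fell from -0.68, -0.68, -0.55 and -0.59 to -2.91, -2.85, -2.16 and -2.16 (-1.89 ± 0.21, adjusted p = 2.60e-05). Its 4 probes ranged from -1.89 to -0.04, 3 of them past the threshold, and their mean differed by -1.05. STK26 stood at 7.29, 6.93, 7.02 and 6.75 in whole blood and at 6.08, 6.02, 5.73 and 5.79 in PBMC. The highest PBMC value was below the lowest whole blood value, and the difference was -1.09 ± 0.16 (adjusted p = 1.86e-04), shrinking to -0.36 (adjusted p = 0.0497) with cyclic loess.

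STK3 and STK4 encode the Hippo pathway kinases MST2 and MST1. STK4, whose loss causes a T cell deficiency in humans, rose from 2.82, 3.33, 3.29 and 2.95 to 4.58, 4.60, 3.89 and 4.03 (1.18 ± 0.21, adjusted p = 7.22e-04). By its brightest probe STK3 fell from 2.76, 2.99, 2.95 and 3.04 to 1.64, 1.76, 1.37 and 1.50 (-1.37 ± 0.14, adjusted p = 1.80e-05). The direction of STK3 rests on that choice, since 2 of its 4 probes fell (-1.37 and -0.34) and 2 rose (0.83 and 0.89), and the mean of the 4 did not differ (6.44e-04, adjusted p = 0.997). Of 5 other tested Hippo pathway genes 4 were higher in PBMC and 1, NF2, was lower (-1.68 ± 0.15), against 39.8% and 39.3% of all features. Of the 4 higher ones, YAP1 was above background on no whole blood array and TEAD4, named after its value was seen, on 1. Both were tested through their PBMC signal alone, so their direction follows in part from the filter. By the same kind of bound as for PRKCE, YAP1 was at least 2.07-fold higher in PBMC on the scale used here. The kinase gene LATS2 rose by 2.45 ± 0.22.

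STK11, also called LKB1, is the kinase that activates AMPK. It fell from -1.43, -1.58, -1.41 and -1.51 to -3.74, -3.25, -3.49 and -3.22, so that it was 3.83-fold higher in whole blood (-1.94 ± 0.15, adjusted p = 3.62e-06; -1.29 by normexp), and its 3 probes fell by between 1.82 and 1.94. Whole blood values lay close together and no PBMC value came near them. Of 6 other tested genes around STK11 and AMPK, 4 were lower in PBMC, 1 higher and 1 not past the threshold, with a median of -1.02. Lower and higher levels were found for 39.3% and 39.8% of all features. The genes of this list that fell were the autophagy kinase ULK1 (-2.84 ± 0.22) and those of the STK11 partner proteins STRADA (-1.37 ± 0.15), CAB39 (-1.13 ± 0.16) and CAB39L (-0.90 ± 0.23). The CAB39 genes were named after their values were seen. The acetyl-CoA carboxylase gene ACACA, whose product AMPK inhibits, rose (1.69 ± 0.20).

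The AMPK subunits did not move together. The beta subunit gene PRKAB2 fell from 2.91, 2.97, 2.77 and 2.93 to 1.39, 0.99, 0.93 and 0.96 (-1.83 ± 0.15, adjusted p = 4.09e-06), and all 7 of its probes fell. The gamma subunit gene PRKAG2 rose from -2.35, -2.19, -2.12 and -2.05 to 0.34, 0.15, 0.47 and 0.16, a 5.48-fold difference (2.45 ± 0.14, adjusted p = 7.50e-07), and all 9 of its probes rose. Each of these pairs of groups was separated by more than 1 log2 unit. PRKAB1 did not pass, with 1.66, 1.77, 1.95 and 1.55 in whole blood and 1.97, 1.71, 1.93 and 1.86 in PBMC (0.14 ± 0.14, adjusted p = 0.383). It was higher in PBMC with quantile normalization (0.44, adjusted p = 0.0129) and cyclic loess (0.40, adjusted p = 0.0209), and below 0 with arrays centred on their median (-0.17).

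The catalytic subunit gene PRKAA1 fell slightly by its brightest probe, from -0.37, -0.52, -0.33 and -0.57 to -0.67, -0.79, -0.82 and -0.93 (-0.36 ± 0.13, adjusted p = 0.0290). Its other probes fell by 1.35 and 1.73, and the mean of the 3 by 1.14 on the log2 scale (adjusted p = 6.73e-05). The call ended in 12 of 25 alternatives, with adjusted p up to 0.203. PRKAG1 and PRKAG3 varied between birds. PRKAG1 stood at -0.64, 0.54, -0.75 and -0.01 in whole blood and at -1.12, -0.21, -2.06 and -1.28 in PBMC. Bird 2 was highest and bird 3 lowest in both groups, and PBMC lay lower in each bird. The difference of -0.95 ± 0.41 did not pass (adjusted p = 0.0578), but did with the bird as a block (adjusted p = 0.00202). PRKAG3 was lower in PBMC in 4 of 4 birds (-0.93 ± 0.31, adjusted p = 0.0215), with overlapping groups, and its call ended in 6 of 25 alternatives. Of these, 3 left out a single array (whole blood of bird 2, whole blood of bird 4 or PBMC of bird 4), with differences of -0.88, -0.80 and -0.87.

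**Figure D4:**
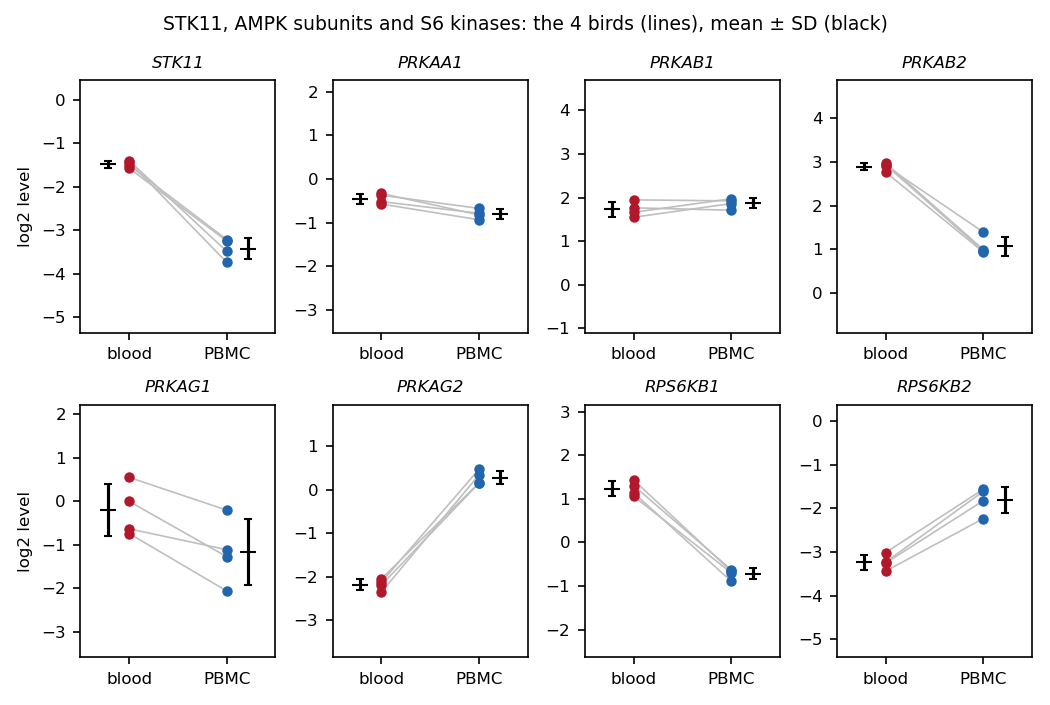
Log2 level of STK11, 5 AMPK subunit genes, RPS6KB1 and RPS6KB2 in whole blood and PBMC of the 4 birds, joined by lines, with mean ± SD in black; each panel spans the same number of log2 units. STK11, PRKAB2 and RPS6KB1 lie lower in PBMC, PRKAG2 and RPS6KB2 higher, and the PRKAB1 groups overlap.

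Of protein kinase A, whose regulatory subunits hold the catalytic subunits inactive until cyclic AMP binds, only regulatory subunits were among the members. PRKAR1B rose from -3.16, -3.31, -2.99 and -3.11 to -1.99, -2.28, -1.69 and -2.17 (1.11 ± 0.16, adjusted p = 1.86e-04). PRKAR1A rose from 3.18, 3.42, 3.36 and 3.34 to 4.23, 3.84, 3.68 and 3.97 (0.60 ± 0.15, adjusted p = 0.00497). Neither showed overlap, but the PRKAR1A call ended with arrays centred on their median (0.29, adjusted p = 0.116) and in each slide row alone (0.53, adjusted p = 0.0585, and 0.68, adjusted p = 0.0758). A second PRKAR1A probe, above background on all arrays, did not pass (0.20, adjusted p = 0.172 by limma). Of 12 tested genes of cyclic AMP signalling, 7 were higher in PBMC and 4 lower (39.8% and 39.3% of all features), and 1 did not pass. Adenylyl cyclases went both ways, ADCY1 rising by 2.72 ± 0.19 and ADCY9 falling by 2.26 on the log2 scale (SE 0.26), and the phosphodiesterase PDE4B rose by 2.31 ± 0.17.

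Calmodulin-dependent kinase II is built from alpha, beta, delta and gamma chains, and all 4 chain genes were tested. CAMK2D rose from -0.46, 0.30, 0.04 and -0.49 to 2.25, 2.87, 2.03 and 2.12, a 5.54-fold difference (2.47 ± 0.25, adjusted p = 1.60e-05). CAMK2G did not pass (0.21 ± 0.17, adjusted p = 0.263), with 1.86 to 2.40 in whole blood and 2.10 to 2.48 in PBMC; it was higher in PBMC with quantile normalization (0.58, adjusted p = 0.0117) and cyclic loess (0.52, adjusted p = 0.0212), but stood at 0.03 in the authors' values and at -0.10 with arrays centred on their median, and 1 of its 3 probes differed by -0.52 without passing. The delta chain was thus clearly separated and the gamma chain overlapped. CAMK2B rose by 2.20 ± 0.44 (adjusted p = 0.00126; 0.83 by normexp and 0.97 in the authors' values), with whole blood above background on 3 of 4 arrays. CAMK2A rose by 1.30 ± 0.20 by the 1 probe of 5 that was tested (0.71 in the authors' values), and the call ended with the mean of its probes (0.50, adjusted p = 0.102). Of 4 tested genes of calmodulin and calcineurin, 3 were higher in PBMC and 1 lower, against 39.8% and 39.3% of all features. The lower one was the calcineurin subunit gene PPP3R1 (-0.65 ± 0.17).

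Both members outside these families were higher in PBMC by their brightest probe, as were 39.8% of all features. MAPK8IP3 was tested through its PBMC signal alone, so its direction follows in part from the filter. PRKDC, the catalytic subunit of DNA-dependent protein kinase in DNA repair and in the assembly of antigen receptor genes, rose by 0.92 ± 0.19 (adjusted p = 0.00173), with 2 of its 6 probes past the threshold and no call with their mean (0.58, adjusted p = 0.0519). MAPK8IP3, a scaffold protein of the JNK pathway and not itself a kinase, rose by 1.05 ± 0.25 (adjusted p = 0.00405), from a whole blood signal above background on 1 of 4 arrays. Its call ended by normexp (0.24, adjusted p = 0.106), in the authors' values (0.26, adjusted p = 0.129) and with the arrays of slide row 1 only (0.73, adjusted p = 0.0736).

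The 7 remaining members were not tested. PRKAA2, the AMPK catalytic subunit prominent in muscle, MAPK10, the JNK gene of neurons, PRKAR2B and STK36 were above background on no array by the probe used. CAMK4L, whose probe name carries CAMK4, STK32A and STK32C were above background on 1 whole blood array and on no PBMC array. Nothing can be said of their difference at this signal.

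For 15 pairs of relatives the log ratio of their signals was taken on each array and its change compared by an exact two-sided permutation test over the 70 assignments of 8 arrays. This test does not use the pairing by bird, and a test within birds is given below. PRKCE against PRKCH is set aside, since PRKCE was not measured in whole blood. In 12 of the other 14 pairs the ratio change passed (exact permutation p = 0.0286 each, the smallest this unpaired test allows, adjusted p = 0.0330 over the 15 pairs). In STK24 against STK25, MAPK8 against MAPK9, RPS6KB1 against RPS6KB2 and STK3 against STK4, both genes had groups that did not overlap, in opposite directions. The p of these pairs was thus fixed by the differences already given and adds nothing to them. MAPK8 was, like PRKCE, tested through its PBMC signal alone. By sign alone, the differences of the genes were opposite in 9 of the 15 pairs. Among these are pairs with a gene not past the threshold (MAP2K1, PRKAB1 and PRKAG1) and the pair of STK3, whose direction depends on the probe. PRKAG2 enters through both of its pairs. No unrelated pairs were compared, and with 39.8% of all features higher and 39.3% lower, nothing particular to relatives is read from these counts. The ratio change is the difference of the first gene minus that of the second. It was 4.28 for STK24 against STK25, between 3.82 and 4.68 in the single birds, and 2.31 to 4.28 over the combinations of their probes. For MAPK8 against MAPK9 it was 3.72 (3.31 to 4.43), with MAPK8 above background on 2 of 4 whole blood arrays, and 2.32 by normexp and 2.56 in the authors' values. The change was 3.39 (2.70 to 4.00) for PRKAG2 against PRKAG3 and 2.26 (1.37 to 2.67) for CAMK2D against CAMK2G. For PRKAG1 against PRKAG2 it was -3.41 (-3.91 to -3.09), for RPS6KB1 against RPS6KB2 -3.38 (-3.55 to -3.21) and for STK3 against STK4 -2.55 (-2.88 to -2.19). PRKAB1 against PRKAB2 (1.96), STK17A against STK17B (1.67), MAPK11 against MAPK14 (1.61), MAP3K2 against MAP3K3 (-0.86) and PRKAR1A against PRKAR1B (-0.51) completed the measured pairs.

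The conventional protein kinase C genes PRKCA and PRKCB were a pair whose ratio change did not pass (-0.18, -0.72 to 0.67 in the single birds, exact permutation p = 0.486, adjusted p = 0.486), which leaves unequal changes of that size possible. MAP2K1 against MAP2K2 did not pass either (-0.81, -1.07 to -0.45, exact permutation p = 0.0571, adjusted p = 0.0612), though every bird went the same way. PRKCE against PRKCH gave 1.15, but the ratio turned to -1.57 by normexp and -1.24 in the authors' values, so no direction holds for it. STK17A against STK17B (0.65 by normexp and 0.88 in the authors' values) and PRKAR1A against PRKAR1B (-0.08 and -0.22) lost their call under both. An exact test by sign flips within the 4 birds cannot go below p = 0.125, and so called 0 of the 15 pairs. Where genes have several detected probes, all combinations of probes kept the direction in 13 pairs, down to -0.18 for STK3 against STK4. The exceptions were MAP2K1 against MAP2K2 (9 of 12 combinations) and PRKCA against PRKCB (6 of 9).

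**Figure D5:**
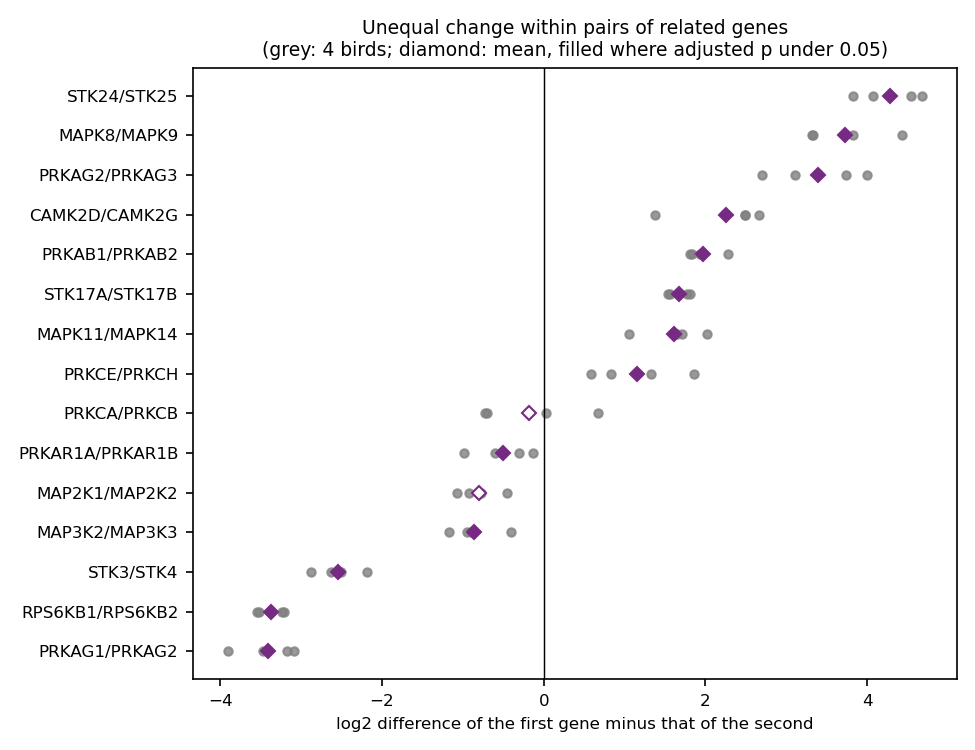
Change of the log2 ratio between related kinase genes (difference of the first gene minus that of the second, PBMC minus whole blood) in each of 4 birds (grey) and their mean (diamond, filled where the unpaired exact permutation test gave an adjusted p under 0.05). Bird values lie on 1 side of 0 in 14 of 15 pairs, PRKCA/PRKCB being the exception, and the change for PRKCE/PRKCH reversed with the background correction.

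Of the 54 tested members, 40 had several tested probes. In 35 of these all probes differed in the same direction, in 5 they differed in sign, and in 2, STK3 and MAP2K2, probes passed the test in opposite directions. The spread between birds was small, with a median SD over the members of 0.20 in whole blood and 0.22 in PBMC, against 0.28 and 0.26 for all tested features.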

How the data were processed

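Total RNA of 8 samples was labelled with Cy3 and hybridised to Agilent arrays. Per the file headers, Feature Extraction 10.7.3.1 (10.7.1.1 in the submitters' processing notes) had subtracted the background from the spot intensities and detrended each array. The deposited table of log2 values, 46154 rows, equals the log2 median spot signal minus 1 constant per array, each column having a median of 0, as set against the arrays. How its rows were selected is not stated in those sources. No per-sample column was left unused (0).

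Control spots (1319 per array) and spots with outlier flags were left out. Levels are log2 of the processed signal minus that of the array's 75th percentile (664 to 846), which with the number of arrays limits the precision. A probe was above background on an array if at least 0.5 of its spots were flagged so, and no probe was saturated (0). Genes with several probes were represented by the brightest. Probes were named through RefSeq (assembly GRCg7b; the headers name galGal3, so no coordinates are given): 10812 by accession, 5139 by gene number and 1630, 58 and 1194 by a current symbol, a synonym and an unmatched symbol in the probe name, in all 18833 of 60539 probes. No sequences are shown. Of 33775 tested features 88 lacked a value on some array.

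Tests used limma 3.58.1 (lmFit, eBayes; R 4.3.3), with p-values adjusted by Benjamini-Hochberg over all tested features at 0.05, and the code was tested on simulated data. Same-numbered samples come from the same bird, and their deviations from the group means correlated at 0.36 to 0.48, and no more than 0.04 for different birds. The tests reported have no bird block unless stated. Alternatives were normexp (offset 50, applied to median spot signals in place of means), the authors' values, quantile, cyclic loess and median scaling, 2 filters, 2 probe rules, bird and slide row as blocks, each row alone, and each array or bird left out. P-values rest on these 4 birds only. Without a bird block, those of limma measure the spread between birds within each sample type, not that of the differences within birds.

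The members, gene lists and tests were chosen with earlier results of these data known. Values are given for up to 4 members per family with the largest change in each direction past the threshold, for members not past it, for a fixed set (PRKCI, PRKCB, PRKCD, AKT1, MAPK8, MAPK14, MAP2K1, PRKAR1A, PRKAA1, PRKAB1, CAMK2D, RPS6KA1, STK4 and STK17B among those tested), for members above background in 1 group only, for pair members and for up to 3 genes of a pathway list. Some genes that the rule names, though counted, are not reported here.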

Additional observations from a re-analysis of the deposited data

Results flagged for a closer look

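Of 104 sets of 4 arrays (52 kinase genes in 2 groups), 8 held an array whose gap to its nearest neighbour as a share of the whole range exceeded Dixon's critical value for 4 values, and chance gives about 1 in 20 such sets. In whole blood these were bird 3 for MAP3K20 (-3.81, the others -0.90 to -0.61), bird 4 for MAP3K13 (-2.77, the others -4.00 to -3.90), bird 1 for MAPK13 (-3.08, the others -2.34 to -2.31) and bird 1 for CAMK2A (-2.98, the others -2.61 to -2.54). In PBMC they were bird 3 for MAP2K2 (0.25, the others -0.35 to -0.27) and MAPK14 (-1.14, the others -0.93 to -0.90), bird 1 for PRKAB2 (1.39, the others 0.93 to 0.99) and bird 2 for STK17B (2.36, the others 2.63 to 2.68). The MAP3K20 and MAP3K13 differences passed the test without the array that stood apart, and MAP2K2 no longer passed (0.48, adjusted p = 0.0829).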

How the results depend on the processing

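The counts of kinase genes past the threshold (46), higher (31) and lower (15) stayed within 1.5 times of these values under all 25 alternatives, as did the 26711 features past it; leaving out 1 array or bird gave 43 to 46 kinase genes, and the bird as a block gave 48, with 31 higher and 17 lower, and 27766 features. Among the 52 kinase genes named under the rule, 33 of the 44 past the threshold stayed past it under every alternative run, 11 lost it under at least 1, and all 8 of the others passed under at least 1. The bird block changed the call of PRKAG1 and RPS6KA5 and of no other of these 52. The kinase median (0.77) was 0.57 with normexp, 0.45 in the authors' values, 0.46 centred on the median, 0.62 without a filter (61 genes) and 0.58 when all probes of a gene were averaged; it was 0.69 to 0.84 with 1 array or bird left out. For STK3, averaging all probes, or the detected ones, gave 6.44e-04. The ratio of PRKCE to PRKCH turned, to -1.57 with normexp and to -1.24 in the authors' values. Of the 15 pair ratios, PRKCE to PRKCH included, 13 passed, 11 with normexp or in the authors' values, and 0 with sign flips within birds as the replicate block, which 4 birds cannot carry below 0.125. The causes of these shifts were not tested, except that sign flips cannot reach the threshold. Signals near background limit what can be read of PRKCE, MAPK8, CAMK2B, STK39 and MAPK8IP3.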
